A study of Drosophila melanogaster with 6 samples.

Results

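The genes described here encode the machinery that copies chromosomal DNA. They are a list of 35 genes of Drosophila melanogaster, chosen by name: subunits that mark replication origins, load and activate the replicative helicase, move the fork, supply nucleotides and package the new DNA. A gene was represented by its brightest probe set that the platform annotation gives to a single gene. Of the 35, 28 had such a probe set under the listed name. CDC45L and RpA-70 were found under their current symbols Cdc45 and RPA1 through the gene identifier, which brought the number to 30. The other 5, geminin, Mcm7, Orc6, RnrS and Top2, had no single-gene probe set in the annotation used and are not analysed here. The 30 genes are a small part of the 11982 genes with a single-gene probe set. Each of the 30 had exactly 1 such probe set, so no choice among probe sets was made.

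In eukaryotic cells the origin recognition complex, with Cdc6 and Cdt1, loads the ring-shaped MCM complex on DNA before S phase. Cyclin-dependent kinase activity then brings Cdc45 and the GINS complex to the ring, which becomes the moving helicase, while the clamp PCNA holds polymerases on the template. Many of these genes are transcribed under E2F control as cells enter S phase. In the larval eye disc, replication occurs in undifferentiated cells ahead of the morphogenetic furrow and in a synchronous wave behind it, so their transcripts are widely read as a sign of cycling cells.

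RNA was measured in eye-antennal discs of wandering larvae (larva 3) in the w1118 strain, in 2 genotypes with 3 arrays each. The growth temperature was 25 C for all 6 samples. The tumour genotype was ey-Gal4 GS(2)88A8 UAS-Dl/+, in which the ey driver expresses Gal4 in the developing eye, and the control was GS(2)88A8 UAS-Dl/+, with the same insertions and no driver. UAS-Dl is a transgene of the Notch ligand Delta, and in the published description of this combination GS(2)88A8 places the transcription factor genes lola and psq under Gal4 control. No group carried the driver alone, so an effect of ey-Gal4 itself and one of the genes it drives cannot be told apart. Each array was made from a pool of many discs, and the whole disc was taken although the driver acts in the eye part. Fewer cells of a type and less RNA per cell therefore cannot be told apart. The comparison asks whether transcripts of the replication machinery differ between tumour and control discs.

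In both genotypes replicate 1 differed from the rest of the arrays. The 18S rRNA control read 14.02 log2 on tumour replicate 1 and 12.18 on control replicate 1, against 7.48 to 9.58 elsewhere, and the actin 3'-minus-5' difference read 1.03 and 0.86, against 0.35 to 0.59. Deviations from the genotype mean, taken over tested probe sets, correlated at 0.794, 0.467 and 0.723 between tumour and control arrays with the same number. Between arrays with different numbers they correlated from -0.776 to -0.524 where one of them was replicate 1, and at 0.668 (tumour 2 with control 3) and 0.473 (tumour 3 with control 2) otherwise. The correlations thus set replicate 1 apart from replicates 2 and 3 and do not single out which of 2 and 3 belong together. Control replicate 3 stood apart in markers of the fat body: Lsp2, Fbp1 and Fbp2 read 6.51, 5.52 and 5.55 there and between 2.17 and 3.24 on the other 5 arrays. Markers of the labelled tissue were present, as all 6 eye-field genes and all 3 antennal genes with a probe set were tested.

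Transcripts of the replication machinery lay slightly higher in tumour discs across most of its complexes, and few single genes passed a test. All 30 genes passed the filter on low values, which asks for a log2 value of at least 4 on at least 3 arrays. The difference, tumour minus control, was above 0 for 28 of the 30, against 61.5% of all 6447 tested genes. Its median was 0.22 log2 over the 30 and 0.05 over all tested genes, and no member differed by as much as 2-fold. Both exceptions, Psf1 and Psf3, encode subunits of GINS.

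Tested without regard to replicate number, by limma with Benjamini-Hochberg adjustment over 7962 probe sets, 0 of the 30 members were called, where 0.140% of all tested genes were called higher and 0.372% lower. At an unadjusted limma p under 0.05 there were 2 members, dpa and RPA2, where 8.73% of all tested genes were under it. The adjusted p of the 30 lay between 0.448 and 1. When the replicate number entered the limma fit as a block, 2 members rose, PCNA and Mcm6, and 0 fell, where 4.06% of all tested genes were called higher and 5.38% lower. The share of called members was thus near the share over all genes. The block reduced the median standard error of a member from 0.177 to 0.082.

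**Figure D1:**
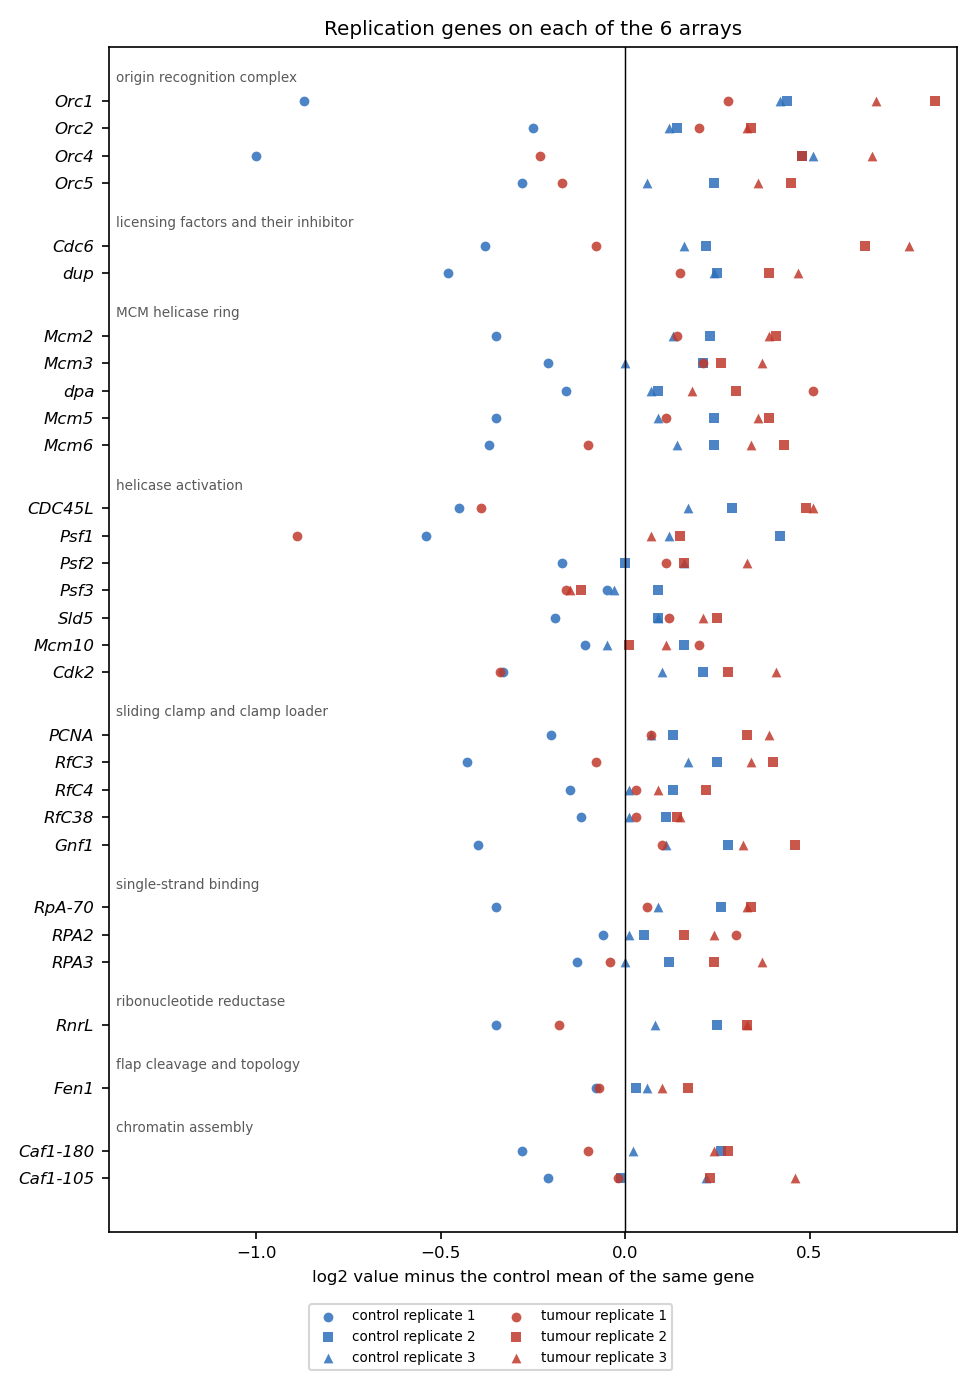
Each point is the log2 value of a member on 1 array minus the mean of that gene's 3 control arrays (x axis), with genes on the y axis grouped by role. Blue marks are control arrays and red marks tumour arrays, with circles, squares and triangles for replicates 1, 2 and 3. Control replicate 1 is the lowest array for 27 of 30 genes.

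The lowest array was the same for most genes, as the plot of values by array shows, and the other arrays varied in order. Control replicate 1 was the lowest array for 27 of the 30 members, against 50.7% of all tested genes. Tumour replicate 2 or 3 was the highest for 25 members, against 50.8%. Within same-number pairs, 27, 26 and 28 members were higher in tumour for numbers 1, 2 and 3, with median differences of 0.29, 0.14 and 0.22 log2. All 3 pairs favoured tumour for 25 members, against 35.7% of all tested genes, and all 3 favoured control for 2, against 20.6%. Genotypes did not overlap for 4 members that were higher in tumour, Orc2, dpa, Sld5 and RPA2, against 8.72% of all tested genes, and for 1 that was lower, Psf3, against 7.20%. On replicates 2 and 3 alone, both tumour values lay above both control values for 24 of the 30, against 36.9%.

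The origin recognition complex binds origins and is the platform on which the helicase is loaded. All 4 measured subunits had a positive difference, and limma called 0 of them, with 0 at an unadjusted p under 0.05 without the block and 3 with it. Over all tested genes those shares were 8.73% and 30%, and 17.7% were higher with the block. Orc1, whose product binds and hydrolyses ATP within the complex, had the largest difference of any member. It read 7.61, 8.17 and 8.01 log2 on tumour replicates 1 to 3 and 6.46, 7.77 and 7.75 on control replicates 1 to 3. The value of control replicate 1 was far below the other 5, and tumour replicate 1 overlapped the controls. The difference of 0.60 ± 0.398 (SE) had a limma adjusted p of 0.889, or 0.123 with the block, and its 95% interval ran from -0.37 to 1.57. Within pairs the Orc1 difference was 1.14 for number 1 and 0.40 and 0.26 for numbers 2 and 3, and without control replicate 1 the unpaired difference was 0.17.

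Orc4 showed the same low control replicate 1 and no steady difference elsewhere. It read 7.01, 7.72 and 7.91 in tumour and 6.24, 7.72 and 7.75 in control, and its difference of 0.31 turned to -0.19 without control replicate 1. Orc2 was lower on every control array than on any tumour array, at 7.16 ± 0.08 in tumour and 6.87 ± 0.22 in control (SD, n = 3). Its difference of 0.29 had a limma adjusted p of 0.859, or 0.144 with the block. Orc5 differed by 0.21 (limma adjusted p = 0.983, or 0.167 with the block), and its pair differences were 0.11, 0.21 and 0.30.

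Cdc6 and dup act next. Cdc6 encodes an ATPase that joins the origin-bound complex, and dup (double parked) encodes the fly Cdt1, which brings the MCM ring. Cdc6 read 7.10, 7.83 and 7.95 in tumour and 6.80, 7.40 and 7.34 in control. Replicate 1 was the lowest array in each genotype, and tumour replicates 2 and 3 lay above all 3 control arrays. The difference was 0.45 ± 0.298 (SE of the unpaired limma fit, adjusted p = 0.887), and with the block its standard error fell to 0.102 (adjusted p = 0.0632). On replicates 2 and 3 alone, without a block, limma called Cdc6 higher by 0.53 (adjusted p = 0.0419), where 2.98% of all tested genes were called higher. With the block on the same 4 arrays it was not called (adjusted p = 0.0629), and 0 members were, where 2.36% of all tested genes were called higher. For dup the pair differences were 0.62, 0.14 and 0.23, with a mean of 0.33 (limma adjusted p = 0.894, or 0.134 with the block).

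The MCM ring is a hexamer of related ATPases and is the motor of the replicative helicase. Its 5 measured subunits were alike, with differences between 0.22 and 0.33 log2, and each was higher in tumour in all 3 same-number pairs. Mcm6 was the subunit called with the block. It read 11.21, 11.74 and 11.65 in tumour and 10.94, 11.55 and 11.45 in control. The genotypes overlapped because tumour replicate 1 lay below control replicates 2 and 3, but each tumour array was above its own number by 0.26, 0.19 and 0.20. Mcm6 rose 1.16-fold (0.22 ± 0.044 log2, SE with the block, limma adjusted p = 0.0497, against 0.971 without it). That p was just under the threshold. On replicates 2 and 3 alone the difference was 0.19 and was not called, with an adjusted p of 0.0835 with the block and 0.13 without it.

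The fly gene for Mcm4 is dpa (disc proliferation abnormal), named for the disc proliferation defect of its mutants. It read 10.76, 10.55 and 10.43 in tumour and 10.09, 10.34 and 10.32 in control. No tumour value fell below a control value, and unlike most members its tumour replicate 1 was the highest array. The difference of 0.33 had a limma adjusted p of 0.5, or 0.144 with the block. Mcm2, Mcm3 and Mcm5 differed by 0.31, 0.28 and 0.29, with limma adjusted p of 0.0747, 0.119 and 0.0866 with the block.

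**Figure D2:**
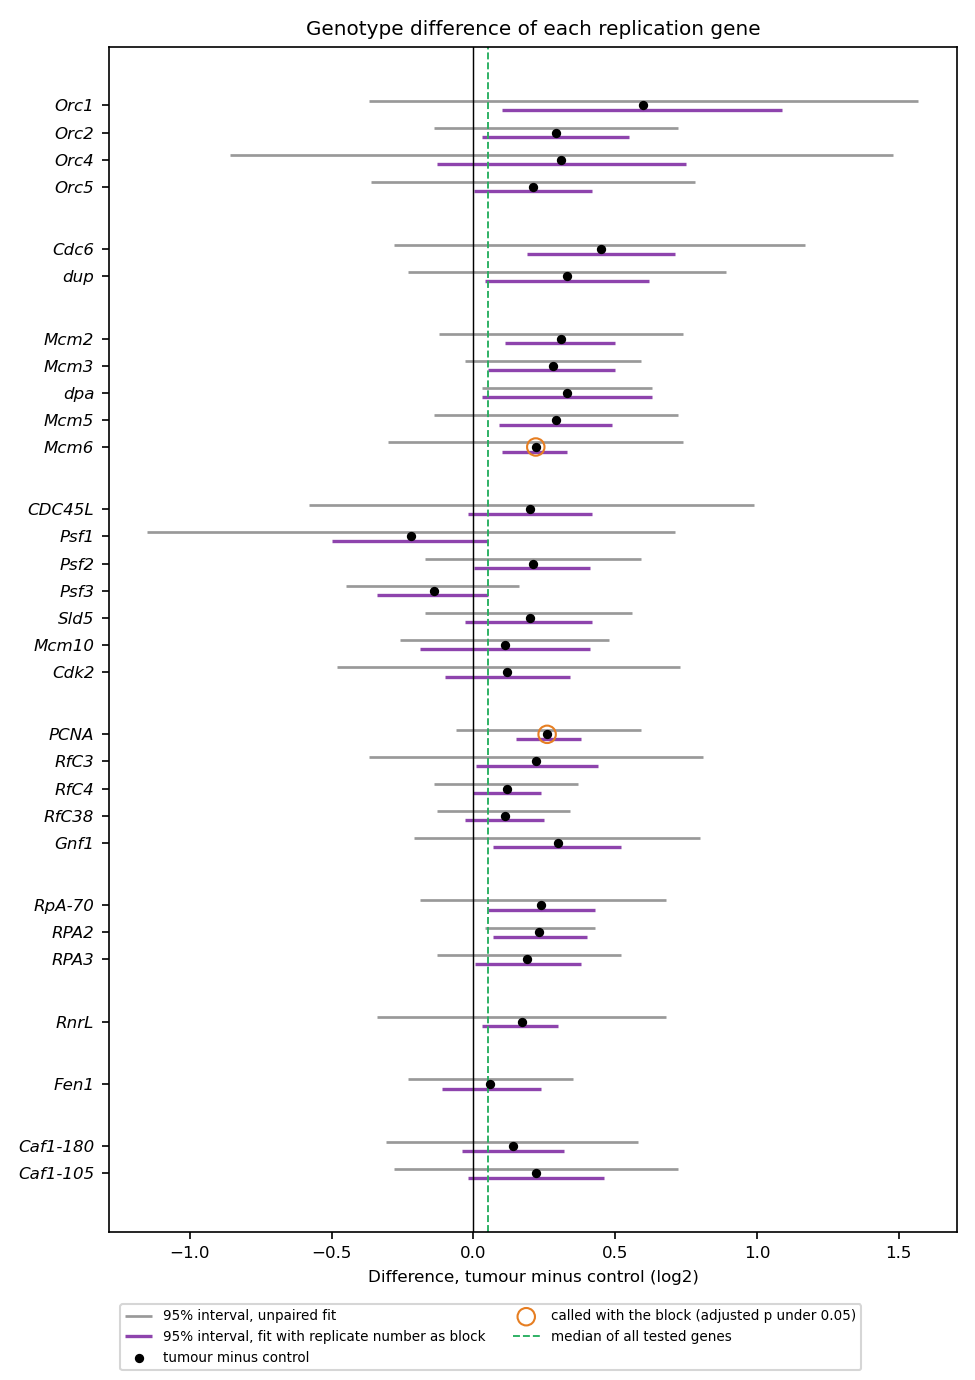
Differences between genotypes (x axis, log2, tumour minus control) for the 30 members (y axis), with 95% intervals from the unpaired limma fit in grey and from the blocked fit in purple. Orange rings mark PCNA and Mcm6, called with the block, and the dashed green line is the median of all tested genes.

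GINS is a tetramer of Psf1, Psf2, Psf3 and Sld5 that joins the MCM ring with Cdc45, and its transcripts did not lie on one side. Psf2 and Sld5 were higher in tumour in every same-number pair, by 0.29, 0.16 and 0.17 for Psf2 and by 0.32, 0.16 and 0.11 for Sld5. Psf1 and Psf3 were lower in every pair, by -0.34, -0.28 and -0.05 for Psf1 and by -0.11, -0.21 and -0.12 for Psf3. Psf3 was steady within each genotype, at 8.19, 8.23 and 8.20 in tumour and 8.30, 8.44 and 8.32 in control, and did not overlap. None of the 4 was called, with limma adjusted p from 0.919 to 1, and from 0.167 to 0.265 with the block. The sign of Psf1 was not stable, since its difference of -0.22 became 0.11 without tumour replicate 1. The other 3 kept their sign under every alternative run.

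The remaining activation factors had small differences. CDC45L, which encodes the Cdc45 subunit of the active helicase, read 8.15, 9.03 and 9.05 in tumour and 8.09, 8.83 and 8.71 in control, and the difference of 0.20 had a limma adjusted p of 1, or 0.19 with the block. Without control replicate 1 it was -0.02. Mcm10, a protein needed for origin firing that is not part of the MCM ring, differed by 0.11 with pair differences of 0.31, -0.15 and 0.17. Cdk2, the kinase partner of cyclin E, differed by 0.12, with pair differences of -0.01, 0.08 and 0.30.

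PCNA, the ring that tethers polymerases to the template, had the smallest adjusted p of the members with the block. It read 11.93, 12.19 and 12.25 in tumour and 11.66, 11.99 and 11.93 in control. Tumour replicates 2 and 3 lay above all control arrays, and tumour replicate 1 lay among them. PCNA rose 1.20-fold with the block (0.26 ± 0.045 log2, SE, limma adjusted p = 0.0326), and was not called without it (adjusted p = 0.735). Each pair favoured tumour, by 0.27, 0.20 and 0.32. Limma called it on replicates 2 and 3 alone (adjusted p = 0.0465), and not when the block was added on those 4 arrays (adjusted p = 0.0638).

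The clamp loader RFC opens PCNA and places it on DNA. Its large subunit gene Gnf1 differed by 0.30 and the small subunit genes RfC3, RfC4 and RfC38 by 0.22, 0.12 and 0.11. None was called in either fit, with limma adjusted p from 0.102 to 0.26 with the block. All 4 were higher in tumour in each pair, and RfC38 by as little as 0.03 in pair 2.

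Replication protein A coats single-stranded DNA at the fork as a trimer, and its 3 genes differed by nearly the same amount. RPA2, the middle subunit, read 11.15, 11.01 and 11.09 in tumour and 10.79, 10.90 and 10.86 in control, without overlap. Tumour replicate 1 was its highest array and control replicate 1 its lowest. The RPA2 difference of 0.23 ± 0.080 (SE, unpaired limma fit) had the smallest adjusted p of the members without the block, 0.448. With the block its limma adjusted p was 0.0902. RpA-70, the large subunit, differed by 0.24 and RPA3, the small subunit, by 0.19, both with overlap.

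The last genes serve the fork in other ways, and none of them was called. RnrL, the large subunit of ribonucleotide reductase, which makes deoxynucleotides, differed by 0.17 (limma adjusted p = 0.998, or 0.117 with the block). Fen1, the nuclease that trims Okazaki fragment flaps, differed by 0.06, and its 95% interval in the unpaired fit ran from -0.23 to 0.35. CAF1-p180 and CAF1-p105, as RefSeq also names the listed CAF1 genes, encode subunits of chromatin assembly factor 1, which deposits histones H3 and H4 behind the fork. They differed by 0.14 and 0.22 (limma adjusted p = 0.259 and 0.191 with the block).

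Error limits what can be said of the members that were not called. In the unpaired fit the 95% interval held 0 for 28 of the 30, and its upper bound had a median of 0.69 log2 and reached 1.57 for Orc1. With the block the interval lay wholly above 0 for 18 members before adjustment, where 17.7% of all tested genes were higher at an unadjusted p under 0.05, and the highest upper bound was 1.09, again for Orc1. The median SD of a member was 0.17 over the tumour arrays and 0.27 over the control arrays. Replicates 2 and 3 of a genotype differed by a median of 0.08 in tumour and 0.11 in control. The difference exceeded the SD of both genotypes for 8 of the 30 members, and the share of all tested genes for which this held was not computed.

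**Figure D3:**
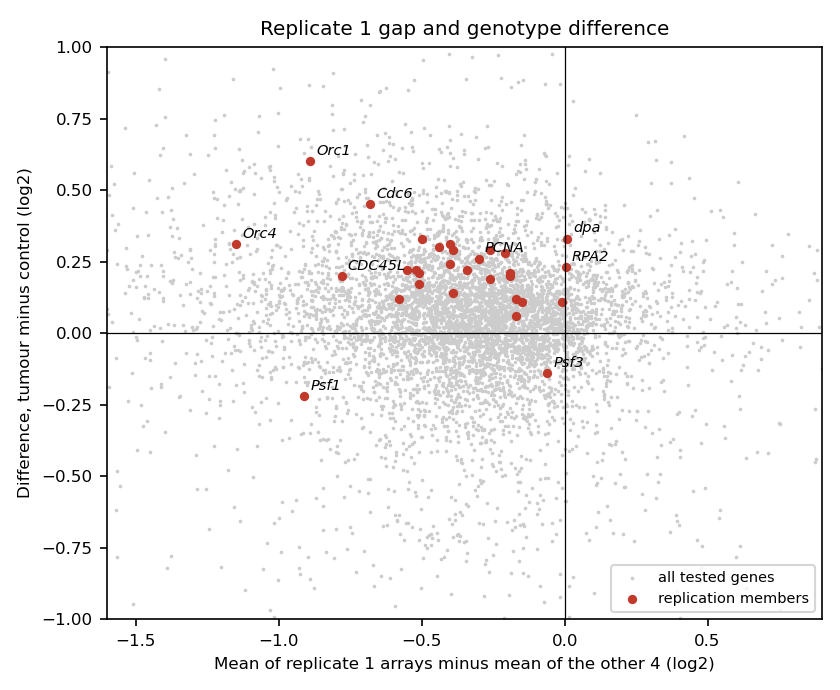
Each point is a tested gene, with the mean of the 2 replicate 1 arrays minus the mean of the other 4 arrays on the x axis and the difference tumour minus control on the y axis, both in log2. Red points are the 30 members and grey points all tested genes, of which 253 lie outside the axes. Members reach from -1.15 for Orc4 to 0.01 for dpa on the x axis.

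The gap between replicate 1 and the other arrays spread over a wider range among members than the genotype difference did. It had a median of -0.39 log2 over the members and -0.34 over all tested genes, and 28 of 30 members were lower on the replicate 1 arrays, against 86.1% of all tested genes. It was widest for Orc4 (-1.15), Psf1 (-0.91), Orc1 (-0.89) and CDC45L (-0.78), and close to 0 for dpa (0.01), Mcm10 (-0.01) and RPA2 (0.0036). For dpa, Mcm10 and RPA2 a high tumour replicate 1 and a low control replicate 1 offset each other in this mean. The median drop on replicate 1 was larger in control than in tumour. Control replicate 1 lay below control replicates 2 and 3 by a median of -0.43 over members and -0.36 over all tested genes, and tumour replicate 1 by -0.29 and -0.31. The 18S rRNA and actin values given above also set the replicate 1 arrays apart, but did not follow the size of the drop. They were higher on tumour replicate 1 (14.02 and 1.03) than on control replicate 1 (12.18 and 0.86), where the drop was larger. Their part in the gap was not tested.

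The median of the members followed the arrays used. It was 0.08 when control replicate 1 was left out and 0.34 when tumour replicate 1 was, and that of all tested genes was then -0.073 and 0.153. Without control replicate 3, the array with fat body transcripts, it was 0.29 against 0.109. Relative to all tested genes the members' median was higher by 0.17 with all 6 arrays and by 0.14 to 0.22 in every setting run.

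**Figure D4:**
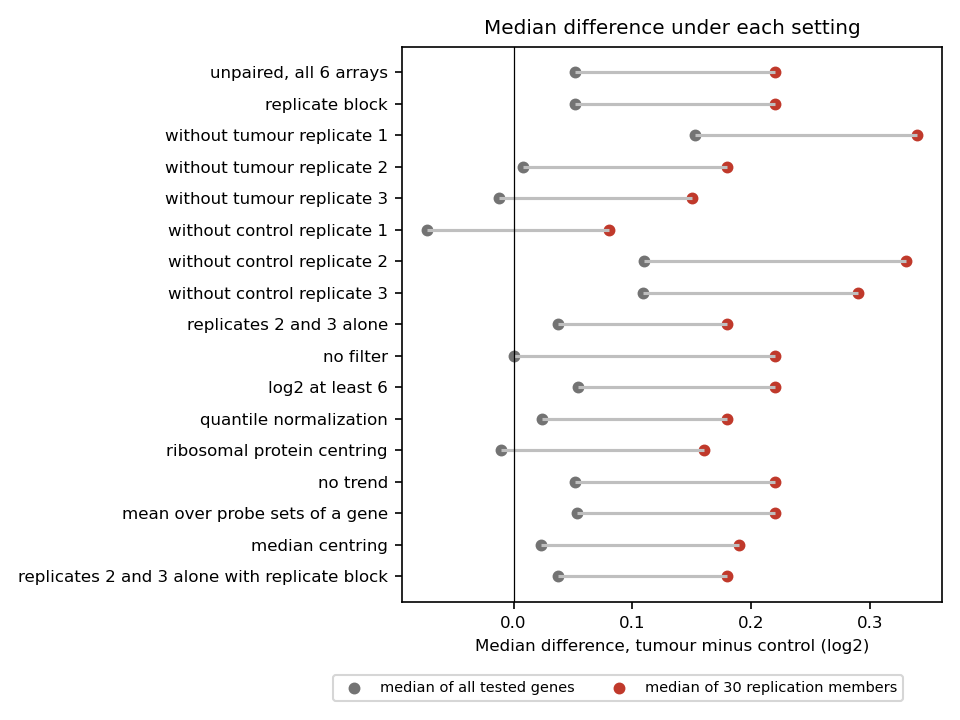
Median difference, tumour minus control (x axis, log2), over the 30 members in red and over all tested genes in grey, for the unpaired limma fit and each alternative (y axis). Both medians move together, lowest without control replicate 1 (0.08 and -0.073) and highest for the members without tumour replicate 1 (0.34).

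Other genes of the replication pathway, from a list of 40, had a similar median, but fewer of them had a small p with the block. Of the 40 listed, 34 had a probe set and 32 were tested. The difference was above 0 for 27, against 61.5% of all tested genes, and the median was 0.20. Limma called 0 in either fit, where 4.06% of all tested genes were called higher and 5.38% lower with the block. At an unadjusted limma p under 0.05 there were 2 without the block and 10 with it, against 8.73% and 30% of all tested genes. With the block 18 of the 30 members were under that p, so the other genes lay nearer the share of all tested genes. Of 8 tested polymerase and primase subunit genes all 8 had a positive difference. PolD2, a subunit of DNA polymerase delta, had the smallest p among them with the block, with a difference of 0.37 (limma adjusted p = 0.48, or 0.0967 with the block) and no overlap. PolD3 stayed at the floor of 2.17 on every array. Among origin, kinase and checkpoint factors the smallest p with the block was for RecQ4, a helicase of the initiation step, at 0.51 (limma adjusted p = 0.957, or 0.0638 with the block). CG8142, named in flies as a clamp loader subunit by homology, differed by 0.27 (limma adjusted p = 0.506, or 0.084 with the block). Among genes of nucleotide supply dnk, the deoxynucleoside kinase, differed by 0.22 (adjusted p = 0.143 with the block). The list also held tim, known as a circadian clock gene, which was not tested, and Ublcp1, listed under an older name, whose part in nucleotide supply is not known. Ublcp1 was among the 10 genes under an unadjusted p of 0.05 in the blocked limma fit, and was lower in tumour (-0.22).

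Of 7 tested G1/S regulators limma called 0 in either fit, with 0 and 1 at an unadjusted p under 0.05 without and with the block. The shares of all tested genes at that p were 8.73% and 30%. The median was 0.11, and the smallest p with the block was for CycD, the cyclin partner of Cdk4, at 0.22 (limma adjusted p = 0.674, or 0.141 with the block). CycE, the partner of Cdk2, read 11.18, 9.91 and 9.99 in tumour and 10.49, 10.06 and 9.90 in control. Replicate 1 was the highest array of each genotype for CycE, the reverse of most replication genes. Genes of mitosis, the nearest group by function, had a median of 0.19 over 19 tested genes. Of these 18 were above 0, against 61.5% of all tested genes. With the block limma called 4 higher, barr (0.33), tum (0.27), thr (0.58) and CycB3 (0.31), with adjusted p from 0.0352 to 0.0467. Of all tested genes 4.06% were called higher with the block. Limma called 0 mitosis genes without the block. Those at an unadjusted limma p under 0.05 numbered 2 without the block and 10 with it, against 8.73% and 30% of all tested genes. Whether replication and mitosis genes differed from each other was not tested.

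**Figure D5:**
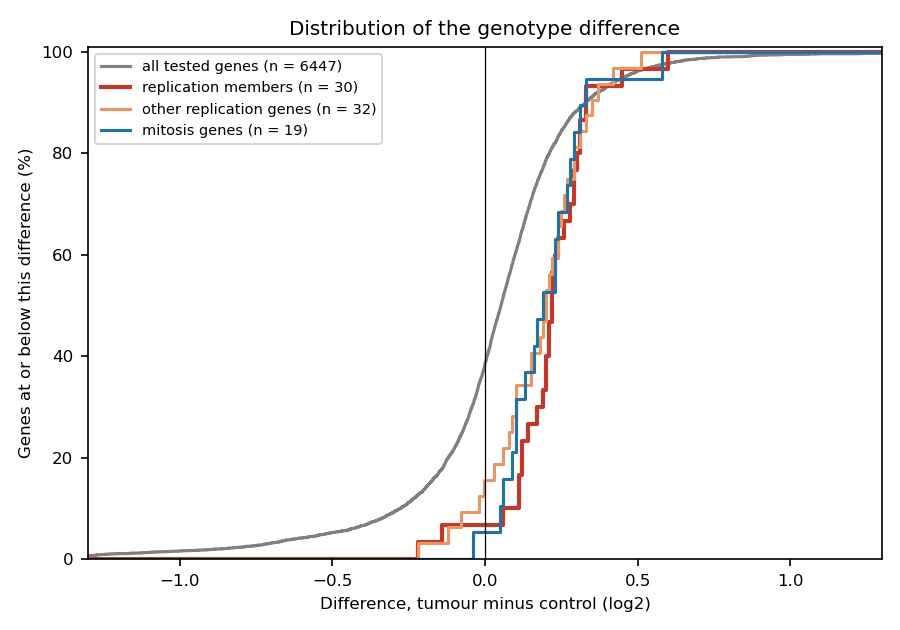
Cumulative share of genes (y axis, %) at or below a given difference, tumour minus control (x axis, log2), from the unpaired limma fit, for 30 replication members, 32 other replication genes, 19 mitosis genes and 6447 tested genes, of which 58 lie outside the axis. Most genes of the 3 cell cycle curves lie to the right of 0, with 28 of 30, 27 of 32 and 18 of 19 above it. The share of all tested genes above 0 is 61.5%. No gene of the 3 cell cycle curves lies above 0.60.

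Markers of eye, antennal and muscle cell types moved with the same comparison, and summed levels of haemocyte, glial and tracheal markers overlapped between genotypes. Of all tested genes limma called 4.06% higher and 5.38% lower with the block, and 0.140% and 0.372% without it. At an unadjusted limma p under 0.05 were 8.73% without the block and 30% with it. Summed log2 levels of the 6 eye-field genes ran from 69.0 to 71.2 in tumour and from 63.7 to 67.2 in control, and limma called all 6 higher with the block and 0 without it, where all 6 had an unadjusted p under 0.05. For 4 photoreceptor markers the sums ran from 40.5 to 41.9 and from 39.0 to 39.8, with 3 called higher with the block and 0 without it, where 2 had an unadjusted p under 0.05. Antennal markers (3 genes) ran from 27.9 to 28.8 and from 29.0 to 29.6, and 1, Dll, fell with the block. The antennal genes ss and salm differed by -0.51 and 0.07 and were not called. Muscle markers (2 genes) ran from 15.7 to 16.2 and from 17.1 to 17.9, and 1, TpnC73F, fell in both fits. Haemocyte markers (6 genes) ran from 40.2 to 41.4 and from 40.1 to 45.4, with 0 called by limma in either fit and 0 and 3 at an unadjusted p under 0.05. Glial markers (3 genes, gcm at the floor) ran from 18.2 to 19.6 and from 18.4 to 20.2, and 1, moody, fell with the block. Tracheal markers (3 genes) ran from 26.4 to 28.9 and from 26.5 to 30.1, with 0 called in either fit and 0 and 1 at an unadjusted p under 0.05. The part of these shifts in the small difference of the replication genes was not tested.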

How the data were processed

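RNA from eye-antennal discs of 6 samples was hybridised to one-colour Affymetrix Drosophila Genome 2.0 arrays, 15 ug of cRNA each, per the labels' protocols. The authors deposited log2 intensities of 18952 probe sets, made with GCRMA (version not stated), per the submitters' processing notes, and the log2 scale was read from the values (2.165 to 15.79). They were not normalized again. Arrays have no read depth, and their number limits the precision.

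The 183 control probe sets were set apart; 13647 of the rest had 1 gene, 402 several and 4720 none. Names were updated by gene identifier for 13544. The comparison used limma 3.58.1 (R 4.3.3, lmFit, eBayes with trend) over 7962 probe sets with a log2 value of at least 4 on at least 3 arrays, adjusted by Benjamini-Hochberg, two-sided, threshold 0.05. Replicates are numbered 1 to 3 in each genotype, and the labels do not tell what a number stands for; the correlations between same-number arrays, all over 0.1, are the basis for the fit with a replicate block, so the pairing comes from the data. They separate number 1 from the others but not 2 from 3, since tumour 2 correlated more with control 3 (0.668) than with control 2 (0.467). In the unpaired fit p-values measure the spread between these samples, which the labels call biological replicates. In the blocked fit they measure the spread that is left once the effect of replicate number is taken out. Members and lists were chosen with earlier results of these data known. All 30 members are reported, and of each other list the genes called or with the smallest p in the block fit, up to 4. The fits were tested on simulated data with a replicate effect and planted differences of 1 or 2 log2. Each is larger than the difference of any member, so detection of differences of the members' size was not tested. Alternatives were the block, leaving out each array, replicates 2 and 3 alone, other filters and scalings, no trend, and averaged probe sets; median centring, the block on replicates 2 and 3, and members by exact symbol were added after seeing the data. Promoter sequences were not analysed here.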

Additional observations from a re-analysis of the deposited data

How the results depend on the processing

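The count of called members was 0 in the unpaired limma fit, 2 with the replicate block (PCNA and Mcm6) and 2 with replicates 2 and 3 alone (PCNA and Cdc6); it was 0 in each other setting, leaving out any 1 array included (0 to 0). The block called 0 of the other replication genes, as did every setting. Among all tested genes, 33 were called in the unpaired fit, 609 with the block, 462 with replicates 2 and 3 alone, 434 with those 4 arrays and the block, 179 after quantile normalization, 160 with ribosomal protein centring, 145 with median centring and 1 with no filter, where 11982 genes were tested; leaving out 1 array gave 0 to 13. The members' median of 0.22 ranged from 0.08 (without control replicate 1) to 0.34 (without tumour replicate 1) when 1 array was left out. Of single members, Fen1 turned to -0.0025 with ribosomal protein centring. Leaving out 1 array turned the sign of CDC45L (-0.02 to 0.50), CAF1-p180 (-0.0032 to 0.27), Cdk2 (-0.04 to 0.35), Orc4 (-0.19 to 0.58), RnrL (-0.0046 to 0.34) and Psf1 (-0.50 to 0.11), and in all of these but Psf1 and Cdk2 it was control replicate 1 alone that did so; the cause was not tested. The other 468 of 480 member values kept their sign and their side of the threshold, and 4 gained a call. Where 1 array was left out, the genotype with 2 arrays was taken to vary like the other.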
